A study of Mus musculus with 2 samples.

Results

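The collagen genes were the features whose symbol was Col, a number, the letter a and a number, which gave 44 of 28001 features in the deposited matrices of regenerating mouse digit tips. They fell into 11 fibrillar, 9 network-forming, 6 beaded filament, 1 anchoring fibril, 9 FACIT, 4 transmembrane and 2 multiplexin genes, with 2 others. FACIT collagens (fibril-associated collagens with interrupted helices) sit on the surface of fibrils, and multiplexins are basement membrane proteins with several helix interruptions. Of the 44 genes, 37 reached 5 CPM (counts of unique molecular identifiers, UMIs, scaled to a fixed total) in the summed UMIs of at least 1 cell class in each library and were taken as measured. The 7 others had few UMIs in the kept cells of the Lmx1b and Pdgfra libraries, namely Col4a3 (21 and 6), Col4a4 (76 and 50), Col6a5 (4 and 1), Col6a6 (1 and 2), Col19a1 (106 and 7), Col25a1 (76 and 167) and Col26a1 (113 and 67).

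Collagen chains wind around each other into a helix, and the chain makeup sets the structure built. Fibrillar collagens form the fibrils of bone, cartilage, tendon and skin, type IV collagen forms the sheet of basement membranes, and type X collagen marks hypertrophic cartilage. Before fibrils form, prolyl and lysyl residues are hydroxylated, the helix is folded with chaperones, the ends are trimmed by proteases and lysyl oxidases cross-link the product. The digit tip regrows bone, nail bed, dermis, vessels and nerve after amputation through the last phalanx, and the new bone is laid down largely without a cartilage template.

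Single cells came from 2 mouse lines, 1 library each. Mice of the PdgfraCreERT;R26-LSL-TdT line carry a tamoxifen-inducible Cre driven by Pdgfra, a receptor gene active in most mesenchyme, and mice of the Lmx1bCreERT2;R26-LSL-TdT line carry one driven by Lmx1b, a dorsal limb transcription factor. In both, recombination switches on tdTomato from the Rosa26 locus, so the label marks cells, and their descendants, in which the driver was active when tamoxifen was given. All mice were 10 to 12 weeks old and were given tamoxifen (3 mg daily on 4 days). Amputation followed after 10 days, and the regrown tissue was collected 14 days post amputation. No uninjured or uninduced group was analysed here, a sort on tdTomato was not described, and the number of animals behind a library was not stated. A line, its library and its animals therefore cannot be told apart, no p-value is given, and 95% intervals (exact) cover counting error only.

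After filtering, the Lmx1b library had 2747 cells (median 17111 UMIs) and the Pdgfra library 2308 (median 9805.5), and they shared 10 barcode sequences, 1 of them among kept cells. Collagens took 7.77% and 6.29% of the kept cells' UMIs. Cells were put into classes by marker lists that hold no collagen, which placed 2467 and 1957 cells, and a class name stands for cells like that type. A cell with high cartilage and high mesenchymal scores that neither list won was called intermediate. Each class held its own list at the top, with these departures. The chondrocyte and intermediate gates also held the mature osteoblast list at a summed 62503 and 51270 CPM (Lmx1b) and 61112 and 54240 CPM (Pdgfra), most of it Ibsp, a matrix sialoprotein of bone and hypertrophic cartilage. Epidermal-gated cells of the Pdgfra library held 5889 CPM of nail hard keratins against 74.0 in the Lmx1b library.

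Shallow cells of the Pdgfra library stood apart. In the Pdgfra library 50 of the 65 chondrocyte-gated cells had under 10000 UMIs (median 3515.5). They carried H19, an imprinted RNA of growing tissue, at 534 CPM and Xist, the RNA of the inactive X chromosome, at 483 CPM, while the 15 deeper cells had 0 UMIs of either. Matn1, a matrilin of growth and articular cartilage, was at 1351 CPM in the shallow and 19.2 CPM in the deep cells, and Ibsp at 5638 and 72351 CPM. The 222 mesenchymal-gated cells of that library under 10000 UMIs had the same 2 RNAs at 319 and 239 CPM, against 42.3 and 0.0596 CPM in 489 deeper cells. The 20 shallow intermediate cells had them at 371 and 205 CPM, against 21.1 and 0 CPM in 45 deeper ones. In the Lmx1b library H19 was at 42.9 CPM in 18 shallow and 40.4 CPM in 41 deep chondrocyte-gated cells. The main cartilage and intermediate values are for this reason given by depth as well.

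Free RNA was measured first, in cells that should make no fibrillar collagen. Macrophages, dendritic cells, T and NK cells and neutrophils together gave 170 leukocytes with a median of 18674.5 UMIs (Lmx1b) and 162 with 14894.5 (Pdgfra). Col1a1, the main chain of type I collagen, had a UMI in 100% and 99.4% of them, at 16.8 and 12.1 UMIs per cell, or 814 and 731 CPM. A UMI of Col1a1 in a cell was therefore no sign of its expression. Barcodes with under 500 genes, which numbered 1504 and 1410, gave 3.50% and 3.87% of their UMIs to collagens, and Col1a1 made up 44.1% and 38.5% of these against 34.5% and 33.3% of leukocyte collagen. In leukocytes of the Lmx1b library the Col1a1 level fell from 5044 CPM in cells under 2000 UMIs to 615 CPM between 20000 and 40000, while the UMIs per cell went from 7.80 to 17.4. Endothelial cells gave much the same Col1a1 curve up to 40000 UMIs (7.87 to 12.2 UMIs per cell), whereas Col4a1, a chain of basement membrane collagen, went from 2.51 to 81.9 UMIs per cell there.

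**Figure D1:**
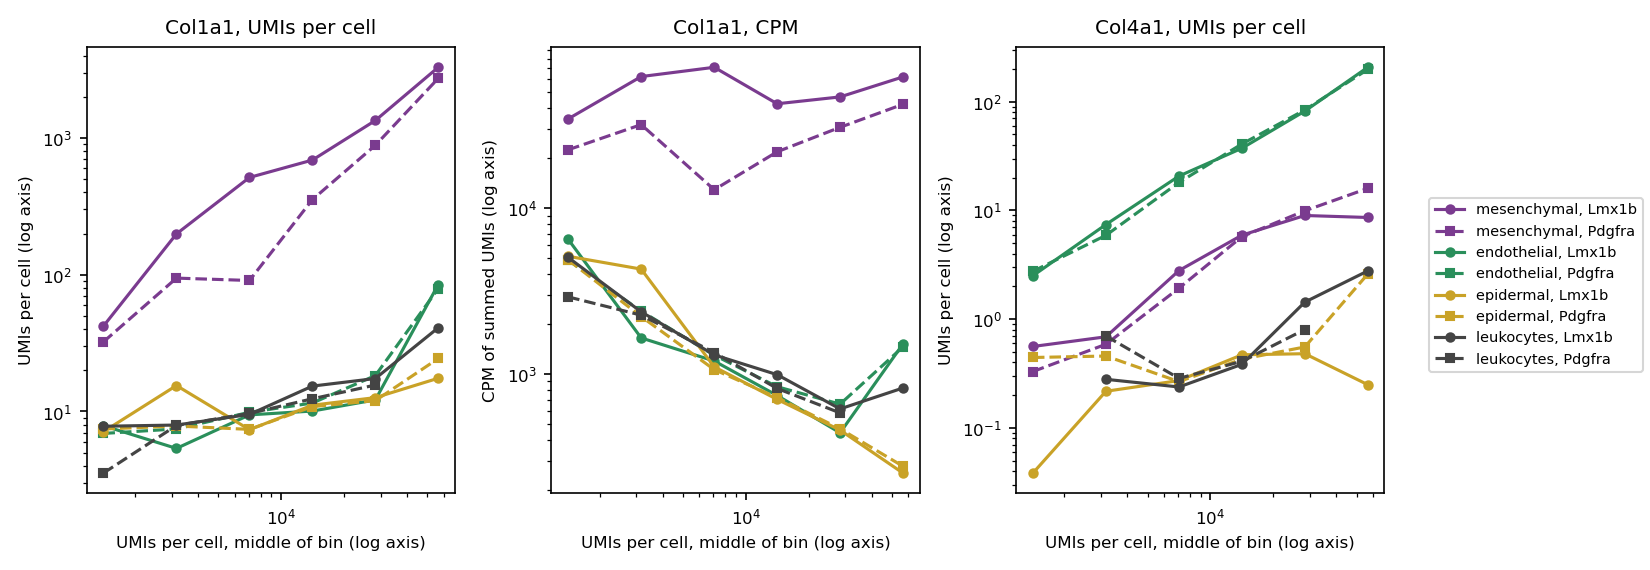
UMIs per cell of Col1a1, the CPM of Col1a1 and UMIs per cell of Col4a1 (vertical axes, logarithmic) in bins of total UMIs per cell (horizontal axes, logarithmic) for mesenchymal, endothelial, epidermal and leukocyte cells; solid lines are the Lmx1b and dashed lines the Pdgfra library. Col1a1 of leukocytes, epidermal and endothelial cells runs together at low UMIs per cell up to 40000 total UMIs, as in 7.80 and 7.87 for leukocytes and endothelial cells under 2000 UMIs in the Lmx1b library, while Col4a1 of endothelial cells climbs away from the rest.

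Set against the leukocytes' UMIs per cell, with the intervals apart in both libraries, 30 of the 44 members were above free RNA in mesenchymal, 25 in intermediate, 21 in chondrocyte, 20 in mural and 17 in Schwann cells. Endothelial cells had 5 such members, epidermal cells 4, and osteoclasts 1. Median depth of these classes ran from 3851 UMIs (chondrocyte-gated, Pdgfra) to 42684 UMIs (chondrocyte-gated, Lmx1b). Leukocyte UMIs per cell of Col1a1 rose with depth, so the counts are not compared between classes. Macrophages and T and NK cells make up most of the reference itself. Col1a1 and Col1a2 were not above this reference in both libraries in endothelial or epidermal cells. They were not counted in Schwann cells either, although Col1a1 was at 1924 and 2093 CPM there against 814 and 731 CPM in all leukocytes. Leukocytes of 5000 to 10000 UMIs, nearer the Schwann medians of 9214 and 10262 UMIs, had 1302 and 1345 CPM. How much of the Schwann level was free RNA was not tested, so it is not read as expression.

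Sequences are shown for the 4 members whose 250 bases before the annotated start hold ACAAAG, the core of the motif bound by SOX factors, on either strand (reverse complement CTTTGT), since Schwann cells and cartilage, the classes in which 3 of them were highest, are gated here by Sox10 and Sox9. A window was found for 35 members (38 windows, RefSeq, GRCm38.p6, which is mm10), and 4 of 38, or 10.5%, held the motif against 16.5% of 32851 windows of all genes. The motif was thus not commoner before members than before other genes. TATAAA stood in 13.2% against 12.4%, CCAAT in 34.2% against 33.8%, and GGGCGG in 57.9% of the member windows against 32.7%, all on both strands. The motif is in capitals below, sequences run 5′ to 3′ on the strand of the gene, and a match is a description, not a site or a cause.
Col20a1: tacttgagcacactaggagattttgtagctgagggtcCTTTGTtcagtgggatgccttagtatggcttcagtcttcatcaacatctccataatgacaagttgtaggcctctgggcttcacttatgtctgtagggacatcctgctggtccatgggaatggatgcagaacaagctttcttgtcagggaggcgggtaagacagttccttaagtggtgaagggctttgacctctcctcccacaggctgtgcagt
Col28a1: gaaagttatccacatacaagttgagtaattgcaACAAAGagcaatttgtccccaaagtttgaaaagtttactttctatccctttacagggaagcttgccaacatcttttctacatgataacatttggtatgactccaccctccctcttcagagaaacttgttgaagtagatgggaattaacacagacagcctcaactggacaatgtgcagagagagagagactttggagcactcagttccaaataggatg
Col10a1: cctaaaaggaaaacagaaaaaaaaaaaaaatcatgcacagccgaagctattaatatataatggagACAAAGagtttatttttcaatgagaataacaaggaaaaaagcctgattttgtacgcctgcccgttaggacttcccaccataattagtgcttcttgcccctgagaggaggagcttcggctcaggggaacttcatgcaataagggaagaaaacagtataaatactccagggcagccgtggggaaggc
Col3a1: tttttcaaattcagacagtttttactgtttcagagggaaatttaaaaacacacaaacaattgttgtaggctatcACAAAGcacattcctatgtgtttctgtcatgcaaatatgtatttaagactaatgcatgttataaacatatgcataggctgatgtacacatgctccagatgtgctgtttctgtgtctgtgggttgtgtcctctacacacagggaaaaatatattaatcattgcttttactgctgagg
Col20a1 (chr2:180986285-180986534, plus strand) and Col28a1 (chr6:8192618-8192867, minus strand) are the pair highest in Schwann cells, Col10a1 (chr10:34389731-34389980, plus strand) is the cartilage network collagen and Col3a1 (chr1:45311288-45311537, plus strand) is the fibrillar collagen of soft tissue. The first base of the motif lay 213, 217, 185 and 176 bases before the start. TATAAA was also present once in the windows of Col10a1 and Col3a1.

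The collagen share of summed UMIs set the classes apart in both libraries. It was 16.4% and 13.6% in chondrocyte-gated cells (59 and 65 cells), 16.4% and 13.1% in intermediate cells (124 and 65) and 11.5% and 8.92% in mesenchymal cells (939 and 711). Mural cells, the pericytes and smooth muscle of vessels, gave 2.10% and 2.84% (314 and 236 cells), Schwann cells 1.54% and 1.54% (32 and 80) and endothelial cells 0.927% and 1.00% (671 and 445). Epidermal cells (0.240% and 0.299%, 112 and 78 cells), macrophages (0.227% and 0.189%, 112 in each) and osteoclasts (0.0756% and 0.234%, 20 and 40) were lowest. The first 3 classes lay above all others in each library.

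**Figure D2:**
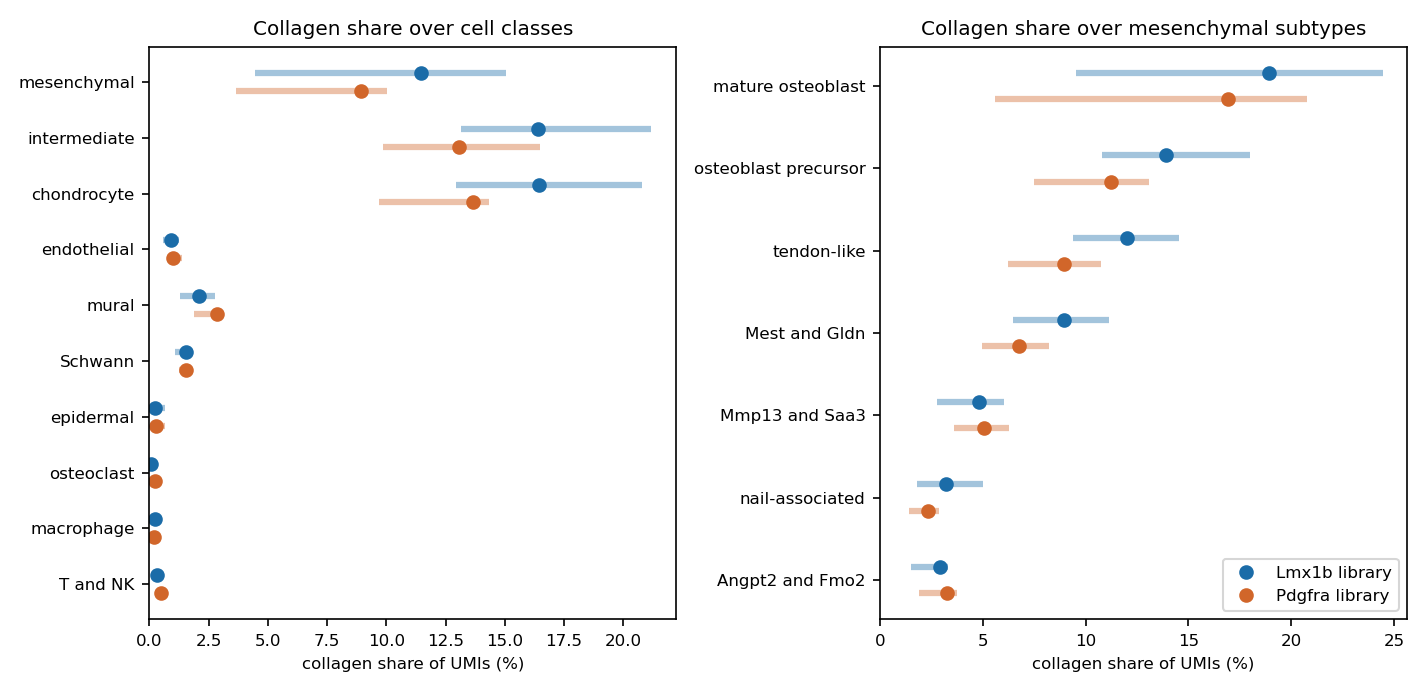
Collagen share of all UMIs (horizontal axis, percent) for each class (left) and mesenchymal subtype (right), listed on the vertical axis; points are the summed UMIs of a library and bars the interquartile range over its cells. Mature osteoblast cells sit highest at 18.9% and 16.9%, and osteoclasts are near 0 at 0.0756% and 0.234%.

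The makeup of that share differed as well. Fibrillar chains were 91.0% and 90.1% of collagen UMIs in mesenchymal and 92.8% and 90.3% in chondrocyte-gated cells. Endothelial collagen was mostly of network type (53.6% and 49.7%) with multiplexins at 21.2% and 16.9%. Mural collagen was 57.4% and 60.5% fibrillar, 17.4% and 17.8% network and 17.2% and 15.3% beaded filament. Transmembrane collagens made up 20.4% and 25.6% of the little that epidermal cells had, and 2.11% and 1.58% or less in the other classes. Of the 37 measured members, 32 were highest in the same class in both libraries.

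**Figure D3:**
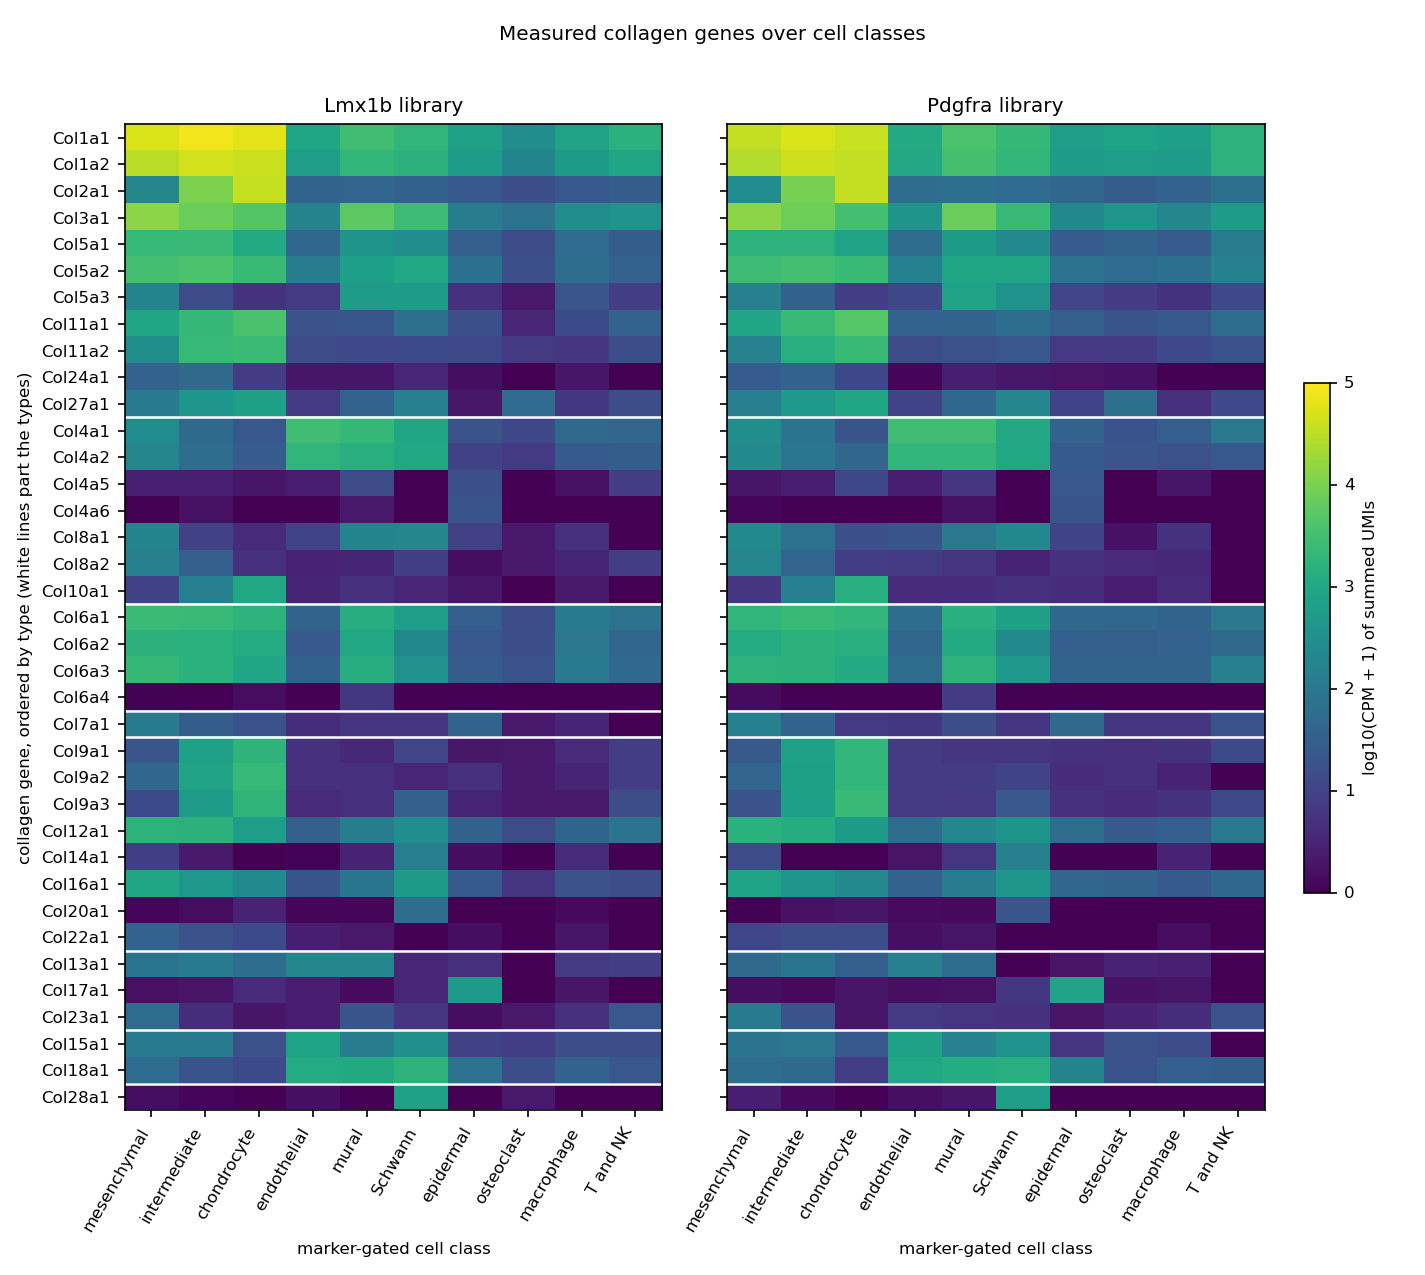
Levels of the 37 measured collagen genes (rows, grouped by type) in 10 cell classes (columns, 1 panel a library) as log10(CPM + 1) of summed UMIs. Most fibrillar and beaded filament rows are bright (high) in mesenchymal, intermediate and chondrocyte columns, and single rows stand out elsewhere, such as Col28a1 in Schwann (710 and 612 CPM) and Col17a1 in epidermal cells (484 and 762 CPM).

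Each class was then compared with the other gated cells of its library. A gene was tested where the mean of both sides was at least 5 CPM in both libraries, and called where log2(CPM + 1) differed by 2-fold or more the same way in both. The call is a rule of size with 2 libraries and not a significance test, and calls are alike in both libraries by construction. A gene that passes the minimum only through the side where it is high can be called in that direction alone, so counts are descriptions. All values are levels per summed UMI. A transcript is counted at its end whatever its length, so levels were not scaled by length. Whether different genes are captured alike was not tested, so their levels are set side by side as descriptions only.

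Mesenchymal cells had 16 of 33 tested members higher and 11 lower, against 5.69% of all tested genes higher and 10.3% lower. The median difference of the members was 0.75 (log2), that of all genes -0.16. The higher members were chains of types I, III, V, VI, VIII, XII and XVI with Col7a1, Col22a1, Col23a1 and Col24a1. Col1a1 was at 52381 and 34752 CPM and Col1a2, the other chain of type I collagen, at 31016 and 26215 CPM, which was 2.88-fold and 3.00-fold, and 2.87-fold and 2.69-fold, above the remaining cells. Those remaining cells include the cartilage and intermediate gates, where type I was higher still. Col3a1, the fibrillar chain of elastic soft tissue, was at 13726 and 13310 CPM against 2650 and 3089 CPM, and highest of all classes in both libraries. Intermediate cells came next at 7572 and 7925 CPM and mural cells after them at 5386 and 7673 CPM, a gap that was small in the Pdgfra library. Col5a1 and Col5a2, the chains that nucleate type I fibrils, were at 2256 and 1727 CPM and at 3200 and 2722 CPM, 4.10-fold and 3.95-fold, and 3.25-fold and 2.99-fold, above the rest.

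Among the smaller structures, Col6a1, Col6a2 and Col6a3, the chains of the beaded filament around cells, were at 2563 and 1957, 1632 and 1200, and 2133 and 1710 CPM. Mural cells held the same 3 chains at 1306 and 1496, 971 and 1151, and 1318 and 1674 CPM, so that both libraries had them in mesenchyme and vessel wall together. Col6a4 was found only at a low level, with its highest value in mural cells (5.41 and 6.29 CPM). The fibril-associated Col12a1 was at 1711 and 1579 CPM (4.88-fold and 5.07-fold) and Col16a1 at 898 and 812 CPM (7.08-fold and 5.69-fold). Col8a2, a chain of the short-network collagen VIII, had the largest fold of these with 150 and 191 CPM against 6.96 and 11.2, or 21.6-fold (18.7 to 25.1) and 17.1-fold (14.8 to 19.8). Its partner Col8a1, at 177 and 246 CPM, was not restricted in the same way: Schwann cells had 202 and 220 CPM and mural cells 179 and 101 CPM, while Col8a2 was at 7.48 and 2.12 CPM and at 2.32 and 4.97 CPM there. The ratio of Col8a1 to Col8a2 UMIs accordingly ran from 0.268 in intermediate to 77.1 in mural cells of the Lmx1b library, and from 1.29 in mesenchymal to 20.4 in mural cells for Pdgfra. Col8a1 was not above free RNA in both libraries in intermediate cells, nor was Col8a2 in mural cells. The intermediate and mural ratios thus rest in part on counts not told apart from free RNA. Col7a1, the anchoring fibril collagen that ties the epidermal basement membrane to the dermis, was at 110 and 155 CPM in mesenchymal and 38.0 and 52.0 CPM in epidermal cells, and above free RNA in both. Col23a1, a transmembrane collagen, was at 58.4 and 113 CPM against 5.41 and 6.96 in the rest.

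Chondrocyte-gated cells had 9 of 31 tested members higher and 11 lower (all genes 3.77% and 22.7%). The median was -0.39, with all genes at -0.60. The higher ones were, apart from Col1a2, known from cartilage: Col2a1, the fibrillar chain of cartilage, Col9a1, Col9a2 and Col9a3, the FACIT chains on its surface, Col11a1 and Col11a2, which sit inside that fibril, Col27a1 and Col10a1. Col1a2, a chain of type I collagen, was called at the limit of the rule (2.03-fold in each). In the Pdgfra library Col1a2 was at 6949 CPM in cells under 10000 UMIs and 40997 CPM in deeper ones. Col2a1 was at 35641 and 34926 CPM against 1010 and 924 CPM in other cells, or 35.3-fold (34.9 to 35.7) and 37.8-fold (37.2 to 38.4). The 3 chains of type IX lay within a narrow band in the sums, from 1793 to 2286 CPM in the Lmx1b and 2023 to 2392 CPM in the Pdgfra library. In the Pdgfra library Col9a1, Col9a2 and Col9a3 were at 5268, 3900 and 5217 CPM in the 50 cells under 10000 UMIs. The 15 deeper cells had 1336, 1636 and 1794 CPM, so the band of that library is a sum over unlike cells. Col10a1 was at 982 and 1407 CPM, 55.9-fold (51.7 to 60.5) and 85.9-fold (77.8 to 94.8) above other cells. It had a UMI in 62.7% and 41.5% of the gated cells, against 1.76% and 4.94% of leukocytes, whose depth was lower in the Lmx1b and higher in the Pdgfra library than that of the gated cells (median 42684 and 3851 UMIs). Among cells thinned to 5000 UMIs the shares were 43.2% (28.3 to 59.0) of 44 cells and 50.0% (28.2 to 71.8) of 22 cells, after 15 and 43 shallower cells were left out.

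The same cells held type I collagen at high levels. Col1a1 was at 62064 and 38651 CPM there, above the 52381 and 34752 CPM of mesenchymal cells, while Col3a1 was at 4528 and 3227 CPM and hence lower in cartilage. The ratio of Col3a1 to Col1a1 UMIs was 0.0730 and 0.0835 in chondrocyte-gated and 1.84 and 2.00 in mural cells, the lowest and highest of 10 classes in each library. In the Pdgfra library these values came from unlike cells. Its 15 deep cells had Col2a1 at 28608, Col1a1 at 44421 and Col10a1 at 1022 CPM, and the 50 shallow ones 64760, 11406 and 3225 CPM. In the Lmx1b library Col2a1 was at 35679 CPM in deep and 34056 CPM in shallow cells and Col10a1 at 985 and 837 CPM, while Col1a1 was at 61400 CPM in deep and 90316 CPM in shallow cells.

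Intermediate cells had 11 of 31 members higher and 8 lower (all genes 3.02% and 16.8%), with a median of 0.64 against -0.50 for all genes. Both type I chains were highest of all classes here, Col1a1 at 79536 and 51770 CPM and Col1a2 at 45298 and 42221 CPM, together with Col24a1 (52.3 and 35.6 CPM), a minor fibrillar chain of bone. In cells under 10000 UMIs Col1a1 was at 109374 and 94791 CPM and in deeper ones at 78855 and 50525 CPM. Cartilage chains were also high, with Col2a1 at 10328 and 9432 CPM, Col11a2 at 2194 and 1458 CPM and Col9a1 at 717 and 742 CPM, between the mesenchymal and the chondrocyte levels in both libraries. Col10a1 was at 146 and 152 CPM, from 1391 and 1113 CPM in shallow and 118 and 124 CPM in deep cells. With cells of at least 10000 UMIs only, its log2 difference as a mean over both libraries was -0.12, so that call did not hold.

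Endothelial cells had 5 of 30 tested members higher and 25 lower (all genes 12.0% and 12.2%), and every tested member was thus called. The median was -4.43, that of all genes 0.24. The 5 were also the only members above free RNA in them. Col4a1 and Col4a2, the chains of the common basement membrane network, were at 2979 and 2930 and at 1975 and 2022 CPM, 7.10-fold and 5.78-fold, and 6.76-fold and 5.33-fold, above the rest. These genes lie head to head on chromosome 8, with annotated starts 21 bases apart. Col15a1 and Col18a1, the multiplexins of vessel basement membrane, were at 794 and 713 and at 1171 and 978 CPM, and Col13a1, a transmembrane collagen, at 192 and 151 CPM. Among endothelial cells Col4a1 had a UMI in 96.1% and 89.4%, against 34.7% and 36.4% of leukocytes of higher median depth in the Pdgfra library; after thinning to 5000 UMIs the shares were 95.6% and 96.8%.

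Mural cells had 4 of 30 members higher and 18 lower (all genes 6.60% and 9.61%; medians -2.22 and 0.05). They shared Col4a1 (2094 and 2922 CPM), Col4a2 (1339 and 2009 CPM) and Col18a1 (1098 and 1220 CPM) with endothelium, and added Col5a3, a minor type V chain, at 558 and 745 CPM, the highest of any class. Col15a1 was 134 and 165 CPM, well under the endothelial level. In the Lmx1b library mural Col4a1 lay below and in the Pdgfra library level with the endothelial value. Col13a1 differed between the libraries, at 187 CPM and 57.6 CPM.

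Schwann cells, the glia of peripheral nerve, had 5 of 33 members higher and 22 lower (all genes 10.4% and 10.3%; medians -2.09 and 0.26). Col28a1, a von Willebrand factor domain collagen known from nerve, was at 710 (630 to 798) and 612 (563 to 664) CPM, from 285 and 577 UMIs. All other gated cells together had 0.389 and 1.19 CPM, which makes 1825-fold (1171 to 2994) and 515-fold (375 to 725). It was detected in 93.8% and 83.8% of Schwann cells and in 0 of 170 and 0 of 162 leukocytes, which allows shares of up to 1.76% and 1.85%. Col20a1, a FACIT collagen, was much scarcer, at 59.8 (38.3 to 89.0) and 20.2 (12.1 to 31.5) CPM from 24 and 19 UMIs, against 0.259 and 0.203 CPM elsewhere. Col14a1, a FACIT collagen of soft connective tissue, was at 135 and 153 CPM here and at 7.33 and 12.6 CPM in mesenchymal cells. Col18a1 reached its highest class level in Schwann cells with 1677 and 1406 CPM, and Col4a1 and Col4a2 were at 872 and 1055 and at 947 and 987 CPM. The nail-associated subtype list was also high in these cells (3750 and 2441 CPM); its part in the collagen values was not tested.

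Epidermal cells had 3 of 32 members higher and 27 lower (all genes 6.80% and 20.0%; medians -4.95 and -0.14). Col17a1, the transmembrane collagen of hemidesmosomes, was at 484 (452 to 517) and 762 (714 to 813) CPM against 0.932 and 0.760 CPM in other cells, and was found in 54.5% and 69.2% of epidermal cells. Col4a5 (15.9 and 22.3 CPM) and Col4a6 (18.7 CPM in the Lmx1b library, interval 12.9 to 26.3, which holds the Pdgfra value), chains of epithelial basement membrane that lie head to head 1343 bases apart on the X chromosome, were low in level but highest here; their UMIs numbered 28 and 27, and 33 and 23. The libraries overlapped within counting error for both. Macrophages, osteoclasts and T and NK cells had 0 members higher and 30 of 30, 30 of 30 and 29 of 30 lower (all genes lower 18.5%, 23.1% and 22.4%). Osteoclasts had 1 member above free RNA, Col27a1, at 54.1 (39.3 to 72.6) and 70.1 (56.8 to 85.6) CPM, against 5.38 and 3.97 CPM in macrophages.

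Within the mesenchymal gate 7 subtypes were separated, again by lists without collagens, and each was compared with the other mesenchymal cells. The 37 measured members had the same highest subtype in both libraries in 23 cases. The collagen share of UMIs ran from 18.9% and 16.9% in mature osteoblast cells (145 and 51 cells), over 13.9% and 11.2% in osteoblast precursors (157 and 76), 12.0% and 8.92% in tendon-like cells (178 and 156) and 8.96% and 6.78% in cells marked by Mest and Gldn (86 and 138), to 3.18% and 2.34% in nail-associated cells (45 and 107). Cells marked by Mmp13 and Saa3 (96 and 11) gave 4.82% and 5.03%, and those marked by Angpt2 and Fmo2 (73 and 10) 2.92% and 3.25%. The last 2 subtypes had few cells in the Pdgfra library.

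**Figure D4:**
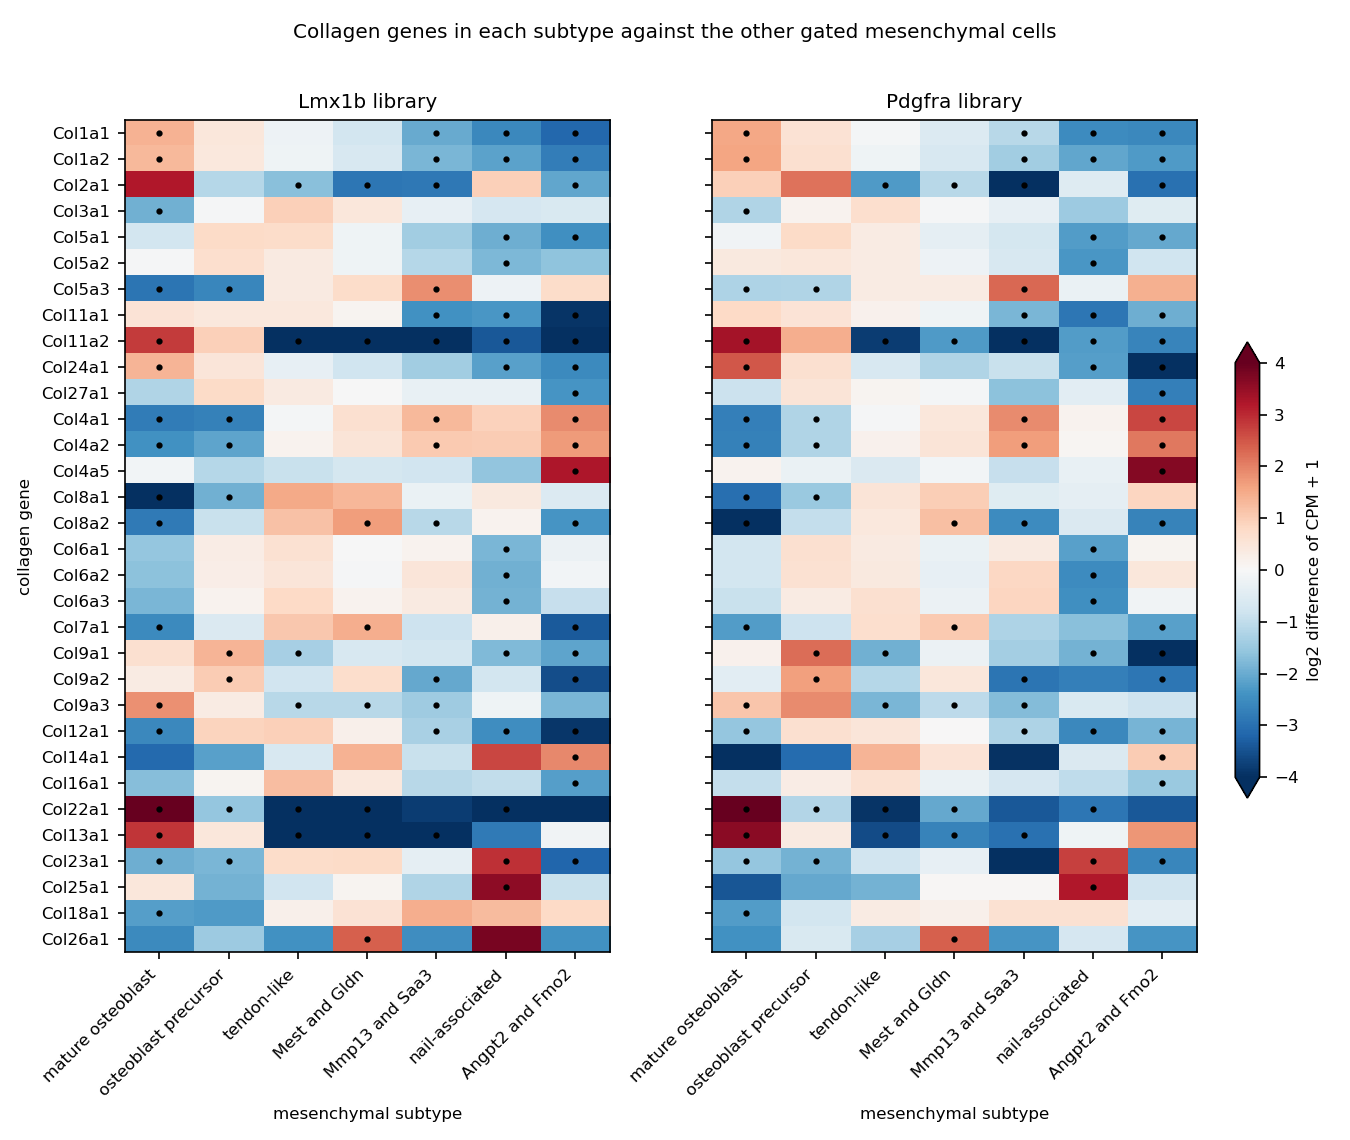
Difference of each collagen gene (rows) between a mesenchymal subtype (columns, 1 panel a library) and the other mesenchymal cells, as log2 of (CPM + 1), with colours limited at 4 either way; dots mark genes called in both libraries. Mature osteoblast columns hold 7 higher genes, with Col22a1 at 4.92 and 5.49, and nail-associated columns hold 13 lower ones, among them Col1a1 at -2.57 and -2.51.

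Mature osteoblast cells had 7 of 29 tested members higher and 10 lower (all genes 1.91% and 9.12%; medians -1.14 and -0.39). Col1a1 reached 110840 and 85093 CPM and Col1a2 63172 and 65512 CPM, the highest level of each chain in any class or subtype with at least 20 cells, and fibrillar chains were 98.0% and 97.3% of collagen UMIs. Col22a1, a FACIT collagen of tissue junctions, had the largest fold: it was at 224 and 112 CPM against 6.45 and 1.52, or 34.7-fold (28.5 to 42.6) and 73.7-fold (44.9 to 127). Col13a1 was at 331 and 303 CPM (7.32-fold and 12.6-fold), Col11a2 at 1144 and 969 CPM (6.93-fold and 10.2-fold) and Col24a1 at 80.1 and 116 CPM (2.63-fold and 5.81-fold). Col9a3 was called at 30.9 and 37.0 CPM, low against the 1840 and 2392 CPM of cartilage. The 10 lower members were Col3a1 (3960 and 5778 CPM, 3.81-fold and 2.33-fold lower), Col12a1 (322 and 552 CPM, log2 differences -2.58 and -1.56), Col8a1 (6.65 and 31.7 CPM), both chains of type IV, Col5a3, Col7a1, Col8a2, Col18a1 and Col23a1. The ratio of Col11a1 to Col11a2 UMIs was lowest here, at 1.04 and 1.45, and highest in tendon-like cells, at 99.1 and 57.7. Col11a2 was not above free RNA in both libraries in tendon-like cells.

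Osteoblast precursors had 2 of 30 members higher and 6 lower (all genes 1.56% and 5.30%; medians 0.45 and -0.17). Col9a1 was at 32.5 and 66.1 CPM (2.73-fold and 4.95-fold) and Col9a2 at 64.1 and 88.7 CPM (2.06-fold and 3.16-fold). Few cells gave much of this: in the Pdgfra library 57.4% of the Col9a1 UMIs came from 3 of 76 cells, and 38.6% from 3 of 157 in the Lmx1b library. Col5a1, at 3164 and 2477 CPM, was highest in precursors among the subtypes. Tendon-like cells had 0 members higher and 6 lower (all genes 0.365% and 1.72%; medians 0.28 and 0.03). Col3a1 (20984 and 16962 CPM) and Col16a1 (1538 and 1013 CPM) were at their subtype maximum there without reaching the rule of size, and the 6 lower ones were Col2a1, Col9a1, Col9a3, Col11a2, Col13a1 and Col22a1.

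Nail-associated cells had 2 of 31 members higher and 13 lower (all genes 6.93% and 3.81%; medians -1.07 and 0.17). Col23a1 was at 363 and 474 CPM against 47.1 and 70.1, or 7.71-fold (6.77 to 8.76) and 6.76-fold (6.13 to 7.46). Col25a1, another transmembrane collagen and unmeasured over whole classes, was at 23.9 and 43.6 CPM against 1.07 and 3.85, from 21 UMIs in 10 of 45 cells and 76 UMIs in 34 of 107 cells, and it passed the filter only through this group. Among the 13 lower were both chains of type I, with Col1a1 at 9250 and 6553 CPM (5.95-fold and 5.70-fold lower), all 3 main chains of type VI, Col5a1, Col5a2, and Col12a1 at 306 and 293 CPM (5.65-fold and 5.96-fold lower). The subtype made up 45 of 939 and 107 of 711 cells of the mesenchymal gate, and its share of members higher was near that of all genes. Col26a1 was at 45.5 CPM in the Lmx1b and 2.30 CPM in the Pdgfra library (40 and 4 UMIs), and 65.0% of the 40 UMIs lay in 3 cells. Nail hard keratins, by contrast with the epidermal gate, were at 5.21 and 8.19 CPM in the mesenchymal gate as a whole.

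Cells marked by Mest and Gldn had 3 of 31 members higher and 5 lower (all genes 0.664% and 1.47%; medians -0.04 and 0.08). Col8a2 was at 379 and 351 CPM (3.18-fold and 2.29-fold), Col7a1 at 235 and 265 CPM (2.77-fold and 2.06-fold) and Col26a1 at 17.5 and 13.5 CPM against 2.50 and 1.75. Angpt2 and Fmo2 cells had 4 of 30 higher and 15 lower (all genes 5.91% and 4.03%; medians -1.58 and 0.09), and Mmp13 and Saa3 cells 3 of 29 and 10 (all genes 3.16% and 2.54%; medians -1.05 and 0.13). Both had type IV chains among the higher: Col4a1 was at 825 and 1794 CPM in the first and 559 and 1088 CPM in the second, and Col4a2 at 552 and 965 CPM and at 358 and 735 CPM. The first group added Col4a5 (16.5 and 19.5 CPM, from 24 and 4 UMIs) and Col14a1 (22.7 and 29.3 CPM, where all 6 UMIs of the Pdgfra library were in 1 cell), and the second Col5a3 (483 and 688 CPM). The summed mural list was at 1902 and 2335 CPM in Angpt2 and Fmo2 cells, with all 10 markers detected in the Lmx1b library, against 356 to 988 and 388 to 800 CPM in the other subtypes and 21120 and 18591 CPM in mural cells; its part in the type IV levels was not tested. Cells were also clustered without collagens in place of the gates. The log2 difference of Col4a1 in the Mmp13 and Saa3 cells, as a mean over both libraries, was then -0.30 and that of Col4a2 -0.13, so these calls did not hold.

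Cycling was compared too. Cycling mesenchymal cells, those with at least 2 UMIs over Top2a, Mki67, Cdk1, Ube2c, Birc5 and Cenpf, had 0 of 31 members higher and 3 lower than the rest (all genes 2.25% and 0.528%). Col11a2 was at 133 against 350 CPM in the Lmx1b and 86.3 against 188 CPM in the Pdgfra library, Col13a1 at 39.0 against 98.2 and 11.3 against 63.8 CPM, and Col22a1 at 12.6 against 41.8 and 1.42 against 12.8 CPM. All 3 are also high in mature osteoblast cells, of which 4.14% and 1.96% were cycling, against 12.7% and 11.1% of the mesenchymal gate; the part of subtype makeup in these differences was not tested.

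Partner chains were followed as a ratio of UMIs in the classes where both chains were above free RNA. Col1a1 over Col1a2 was 1.69 and 1.33 in mesenchymal, 1.76 and 1.23 in intermediate, 1.56 and 1.10 in chondrocyte-gated and 1.45 and 1.16 in mural cells. The protein holds 2 chains of the first to 1 of the second. The ratio moved with depth: in chondrocyte-gated cells under 10000 UMIs it was 2.22 and 1.64, and in deeper ones 1.54 and 1.08. In mesenchymal cells it was 1.99 and 1.46 in shallow and 1.68 and 1.32 in deep cells. These shifts are as large as the differences between classes. Col4a1 over Col4a2 was 1.32 and 1.25 in mesenchymal, 1.51 and 1.45 in endothelial, 1.56 and 1.45 in mural and 0.921 and 1.07 in Schwann cells.

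Cells with tdTomato at 1600 CPM or more were called labelled. Of the mesenchymal cells 70 of 939 (7.45%) were labelled in the Lmx1b and 542 of 711 (76.2%) in the Pdgfra library. Unlabelled cells of the Pdgfra library were shallow (median 2337 UMIs against 25142), whereas depth was alike in the Lmx1b library (24075 labelled, 25931 unlabelled). Depth, label and cell makeup therefore cannot be told apart in the Pdgfra comparison. Collagens were lower in labelled cells of both libraries, at 7.79% of UMIs against 11.7% (Lmx1b) and 8.35% against 13.7% (Pdgfra). Within subtypes a lower share with the label was not general. In the Lmx1b library nail-associated cells had 3.23% against 3.14% and Mest and Gldn cells 8.77% against 9.01%. In the Pdgfra library tendon-like cells had 8.93% against 8.71%. Mature osteoblast cells had 13.7% against 20.1% there, Mest and Gldn cells 6.69% against 8.28% and osteoblast precursors 11.1% against 11.9%. Nail-associated cells had 2.33% against 3.39%, with 8 unlabelled cells.

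Labelled cells had 7 of 33 members higher and 7 lower in the Lmx1b library (all genes 5.06% and 3.28%), and 5 of 30 and 7 in the Pdgfra library (all genes 7.29% and 2.26%). Higher in both were Col7a1, Col8a1, Col8a2, Col14a1 and Col23a1. In the Pdgfra library none of these 5 was called with the label at 800 CPM (log2 differences 0.38 to 0.93), and at 3200 CPM only Col14a1 and Col23a1 were, with Col8a2 at -0.044. In the Lmx1b library all 5 were called at 800 CPM, and only Col8a1 and Col23a1 at 3200 CPM. Col23a1 was at 184 against 50.4 CPM and at 123 against 35.1 CPM, or 3.66-fold (3.20 to 4.16) and 3.50-fold (2.73 to 4.56). Col8a2 was at 309 against 140 and 204 against 74.5 CPM, and Col7a1 at 265 against 100 and 164 against 76.7 CPM. Lower in both were Col9a1, Col11a2, Col13a1, Col22a1 and Col24a1. Col22a1 was at 1.28 CPM (2 UMIs) against 38.6 in the Lmx1b library, 30.1-fold lower (8.30 to 249), and at 5.81 against 49.9 CPM in the Pdgfra library. Most of these members also differed between subtypes, and label and subtype went together: 25 of 45 nail-associated cells (55.6%) and 22.1% of Mest and Gldn cells were labelled in the Lmx1b library, against 0 to 2.81% of the other subtypes. A weighting to the same mix of subtypes could use only subtypes with at least 10 cells on each side. For Lmx1b these were 2 of 7, nail-associated and Mest and Gldn (44 of 70 labelled and 87 of 869 unlabelled cells), so all osteoblast and tendon-like cells were left out. For Pdgfra they were 4 of 7, without nail-associated cells (304 of 542 and 117 of 169 cells). Among the cells used, Col2a1, Col9a2 and Col11a2 (23 against 13 UMIs) were higher and Col18a1 lower in the Lmx1b library, and Col14a1 was higher (166 against 3 UMIs) and Col11a2 lower in the Pdgfra library. The other calls were not seen there, but the subtypes with high Col22a1 and Col13a1 (Lmx1b) or Col23a1 (Pdgfra) were not among the cells compared, so whether the mix accounts for those calls was not tested. Within nail-associated cells of the Lmx1b library Col23a1 was at 432 CPM with the label and 285 CPM without, Col1a1 at 9466 and 9008 CPM, and Col2a1 at 540 and 36.3 CPM (251 and 15 UMIs).

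**Figure D5:**
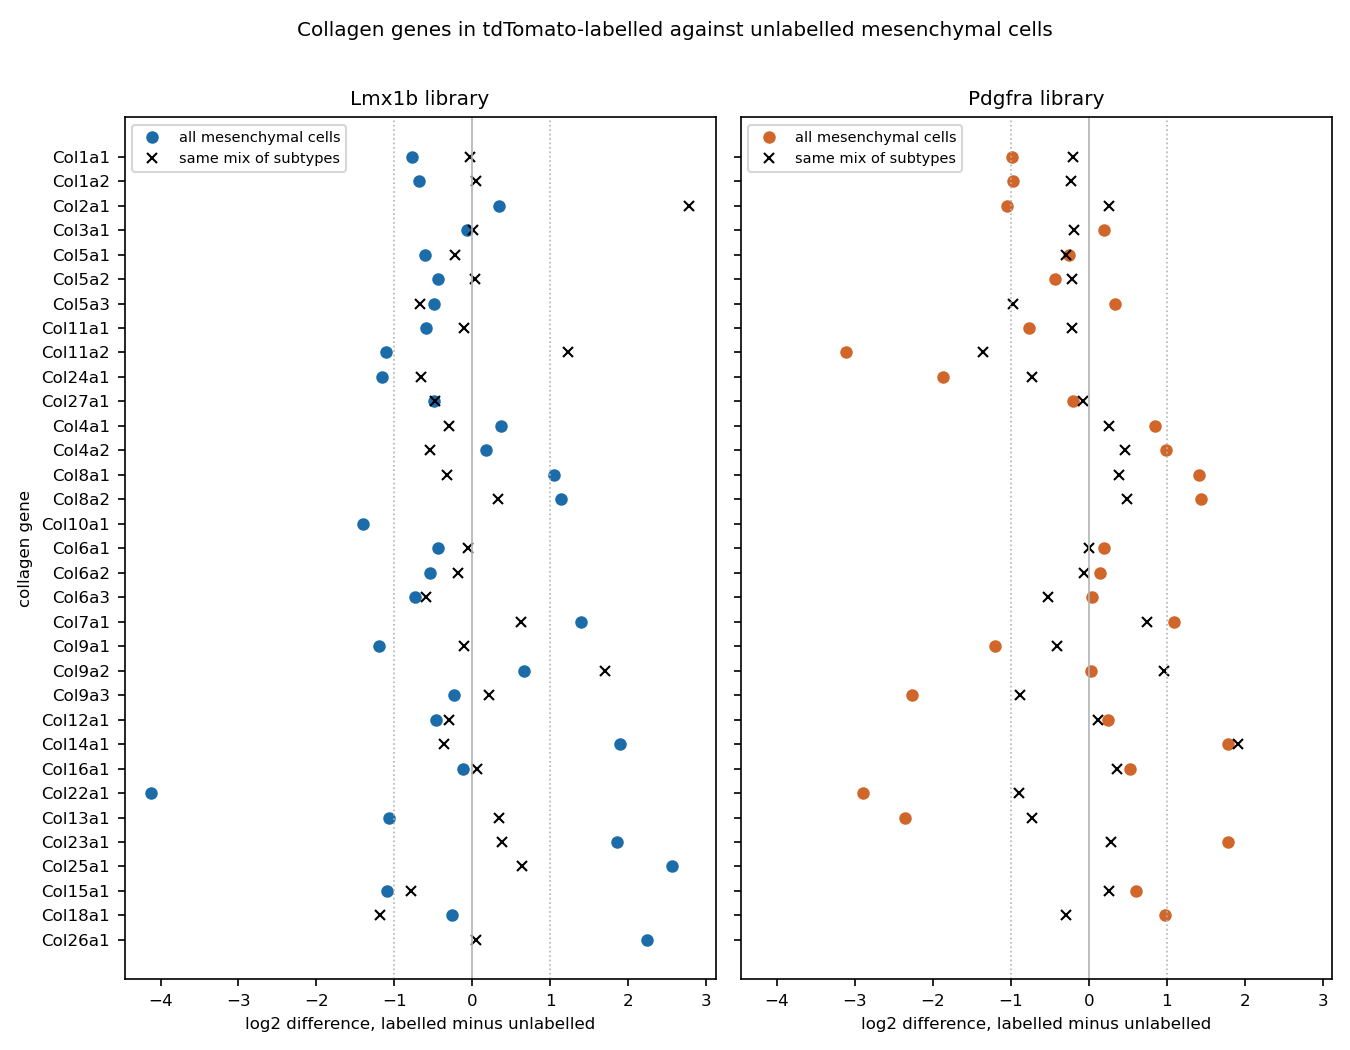
Difference between labelled and unlabelled mesenchymal cells (horizontal axis, log2 of CPM + 1) for each tested collagen gene (vertical axis) in the Lmx1b and Pdgfra libraries; circles take all mesenchymal cells and crosses the same mix of those subtypes with at least 10 cells on each side (2 for Lmx1b, 4 for Pdgfra). Circles reach from -4.12 for Col22a1 to 2.56 for Col25a1 in the Lmx1b library, and most crosses lie nearer 0.

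Between the lines, mesenchymal cells had 0 of 31 members higher and 1 lower in the Pdgfra library (all genes 0.856% and 0.745%), which was Col22a1 at 10.4 against 36.4 CPM. Mesenchymal collagen levels thus differed by less than the rule of size for the other 30 tested members. Osteoblast precursors had 9 of 30 higher and 2 lower (all genes 2.81% and 0.549%). The largest of these was Col2a1, at 692 CPM in the Pdgfra and 85.8 CPM in the Lmx1b library, with 76.4% of the 2137 UMIs and 63.6% of the 486 UMIs in 3 cells each, and 1 cell holding 1163. Col13a1 (52.5 against 115 CPM) and Col22a1 (4.21 against 16.8 CPM) were lower. In nail-associated cells 1 of 31 was higher and 4 were lower (all genes 3.41% and 4.87%), among them Col26a1 and Col7a1 (53.4 against 116 CPM). Mest and Gldn cells gave 3 higher and 0 lower (1.64% and 1.72%), mature osteoblast cells 3 and 2 (2.74% and 3.07%), tendon-like cells 1 and 1 (1.17% and 0.544%), Angpt2 and Fmo2 cells 8 and 0 (8.49% and 13.8%) and Mmp13 and Saa3 cells 1 and 3 (7.07% and 14.2%), the last pair with 10 and 11 cells in the Pdgfra library.

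Outside the mesenchymal gate 0 to 4 members a class were called in either direction. The counts higher and lower in the Pdgfra library were 4 and 0 of 30 in intermediate (all genes 3.52% and 0.633%), 3 and 1 of 31 in chondrocyte-gated (6.67% and 2.85%), 2 and 0 of 23 in endothelial (0.703% and 0.522%), 1 and 3 of 26 in mural (1.13% and 2.88%), 1 and 2 of 28 in Schwann (5.73% and 6.93%) and 4 and 0 of 24 in epidermal cells (13.1% and 7.77%). Col8a1 was among the higher in intermediate (75.9 against 8.43 CPM), chondrocyte-gated (15.9 against 2.96 CPM, from 16 and 6 UMIs) and endothelial cells (19.1 against 8.94 CPM). In endothelial cells its UMIs per cell were 1.44 (Lmx1b) and 3.35 (Pdgfra) times those of leukocytes. In none of these classes (intermediate, chondrocyte-gated, endothelial) was Col8a1 above free RNA in both libraries. In mural cells Col13a1 (57.6 against 187 CPM) and Col23a1 (4.64 against 19.3 CPM) were lower, and in Schwann cells Col20a1 (20.2 against 59.8 CPM, from 19 and 24 UMIs).

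Genes that modify, trim or cross-link collagen were compared as a list of 32. In mesenchymal cells 9 of 28 tested were higher and 2 lower (all genes 5.69% and 10.3%), with a median of 0.72 against -0.16 for all genes. Loxl1 and Lox, lysyl oxidases, were at 225 and 197 CPM against 19.9 and 23.9, and at 586 and 426 CPM against 176 and 135. P4ha3, a prolyl hydroxylase subunit, was at 79.1 and 76.5 CPM against 7.03 and 8.95, and Bmp1 and Adamts2, which trim procollagen ends, were 3.43-fold and 3.10-fold, and 3.01-fold and 2.45-fold, higher. Pcolce, an enhancer of trimming, was higher too, but is a marker of the gate. Chondrocyte-gated and intermediate cells had other members of the list: 10 of 30 higher and 3 lower (all genes 3.77% and 22.7%), and 11 of 29 and 2 (3.02% and 16.8%). Loxl4 was at 279 and 253 CPM in the chondrocyte gate against 20.4 and 20.5, Pcolce2 at 1441 and 1853 CPM against 158 and 150, and Sparc, a collagen-binding protein, at 51649 and 43617 CPM. Endothelial cells had 1 of 29 higher, Colgalt2 (23.2 and 20.9 CPM), a galactosyltransferase of hydroxylysine, and 20 lower (all genes 12.0% and 12.2%). Epidermal cells had 0 of 28 higher and 23 lower (all genes 6.80% and 20.0%), and nail-associated cells 0 of 27 and 9 (6.93% and 3.81%). Mature osteoblast cells, with the highest collagen share, had 3 of 27 higher and 3 lower (1.91% and 9.12%) and a median of -0.08.

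Collagen receptors were a list of 10. Itga11, the integrin subunit for fibrillar collagen, was at 87.4 and 84.5 CPM in mesenchymal cells against 4.39 and 7.52, with Mrc2, an uptake receptor, at 178 and 147 CPM and Ddr2, a receptor kinase, at 87.0 and 88.5 CPM, so that 3 of 8 tested were higher and 1 lower (all genes 5.69% and 10.3%). Itga10, the subunit for cartilage collagen, was at 137 and 107 CPM in intermediate cells against 39.7 and 32.8. Itga1, the subunit for basement membrane collagen, was at 326 and 333 CPM in Schwann and 144 and 202 CPM in mural cells, 11.5-fold and 10.7-fold, and 7.75-fold and 8.45-fold, above the rest. Ddr1, the other receptor kinase, was at 137 and 115 CPM in epidermal and 137 and 114 CPM in Schwann cells. The lower one in mesenchymal cells was Lair1, an inhibitory receptor of leukocytes, and Gp6, the platelet receptor, was too low to be tested.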

How the data were processed

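Single-cell libraries of 2 mouse lines were compared. The authors deposited an unnormalised count of UMIs for each gene in each barcode. Cell Ranger 4.0.0 wrote these, per the file headers. Reads were aligned to mm10 joined with tdTomato, per the labels. Of 28001 features 27645 matched GENCODE vM21 IDs. The members and lists were chosen with earlier results of these data known.

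From 5991 (Lmx1b) and 5032 (Pdgfra) barcodes, those with 500 genes or more and no more than 10% mitochondrial UMIs entered. Scrublet's automatic call marked 0 doublets, so the highest-scoring 0.8% per 1000 barcodes were marked instead, 287 and 203 in all. Of these, 46 and 66 had passed the other filters and were removed. Each marker was scaled to its own 99th percentile among cells that held it and capped there, and a cell's score was the mean over the list. A class needed a score of 0.15 and 1.5 times the next list (subtypes 0.1 and 1.2). Collagens were in no list. Counts were summed per class and library and given as CPM of those sums. Log2 differences used a pseudocount of 1 CPM. A call over classes, subtypes or cycling cells needed 2-fold in both libraries. Labelled cells were called at 2-fold in each library on its own, and lines at 2-fold between the libraries. There was no test, since each line had 1 library. Members called in both libraries, and the group where a member was highest, were named, with the 8 largest calls of the assembly and receptor lists at most. Intervals are exact (Poisson for counts, Clopper-Pearson for shares), cover counting error only and are at 95%. Scripts were tested on simulated data. Python 3.11.15, numpy 2.4.6, scipy 1.17.1, pandas 2.3.3, scanpy 1.11.5 and leidenalg 0.10.2 were used.

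Alternatives were other cell filters, a mean over cells, collagens out of the denominator, subtraction of the leukocyte mean, no doublet removal, other folds, pseudocounts, minimums, margins and label thresholds, clusters made without collagens (30 over all cells, 13 in mesenchyme), the same mix of subtypes and cells of at least 10000 UMIs. The 280 and 351 cells outside all gates and classes under 20 cells entered no class comparison.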

Additional observations from a re-analysis of the deposited data

Results flagged for a closer look

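In osteoblast precursors 2 members moved in opposite directions in the 2 libraries when set against the other mesenchymal cells. The difference between the libraries was not tested, since each line had 1 library. Col2a1 was lower in the Lmx1b library (log2 difference -1.14) and higher in the Pdgfra library (2.18). Col10a1 was lower in the Lmx1b library (-2.05, from 10 UMIs in 157 cells) and higher in the Pdgfra library (1.5, from 31 UMIs in 76 cells). In the Pdgfra library 3 cells held 76.4% of the Col2a1 UMIs and 80.6% of the Col10a1 UMIs of the subtype. Col2a1 also went opposite ways in cycling against other mesenchymal cells, with log2 differences of -1.64 (Lmx1b) and 1.26 (Pdgfra).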

How the results depend on the processing

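Each line had 1 library, levels of low members rest on few UMIs, and gates stand in for cell types. No paired analysis was possible because the lines had 1 library each and the result comes from no test. Of 264 member calls over classes (53 higher, 211 lower) 220 held under every alternative with enough cells, as did 46 of 86 over subtypes (21 higher, 65 lower) and 1 of 26 for labelled cells. Clusters without collagens shared 238 of the 264 class and 65 of the 86 subtype calls. Subtracting the leukocyte mean lost 0 of either, but it takes the same UMIs per cell off both sides. Folds tend to widen by this, and calls rose to 267 over classes and 90 over subtypes, so it says little on free RNA. Cells of at least 10000 UMIs and all alternatives for the line comparison were chosen after seeing the data.

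With 1000 genes and 5% mitochondrial UMIs, which left 7 classes with enough cells, 123 class calls were lower. Subtype calls higher were 33 at 1.5-fold and 10 at 3-fold. Line calls in the subtypes, 26 higher and 12 lower in Pdgfra, became 9 higher with 1000 genes, 12 higher at 3-fold and 12 with clusters, and 19 lower with the mean over cells, 37 lower at 1.5-fold and 27 lower with no minimum.

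For labelled Lmx1b cells (7 higher, 7 lower), lower calls were 4 with the mean over cells, 12 at 1.5-fold, 1 at 3-fold, 4 at 800 CPM, 15 at 3200 CPM and 1 with the same mix of subtypes, and higher calls 4 at 3-fold and 3 with the same mix. For labelled Pdgfra cells (5 higher, 7 lower), higher calls were 9 with 1000 genes, 1 with the mean over cells, 9 with the leukocyte mean subtracted, 8 with no doublet removal, 9 at 1.5-fold, 2 at 3-fold, 8 with no minimum, 0 at 800 CPM, 3 at 3200 CPM and 1 with the same mix, which also left 1 lower.

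The same mix used only subtypes with at least 10 labelled and unlabelled cells, 2 of 7 (Lmx1b) and 4 of 7 (Pdgfra), so its lost and turned calls also reflect the subtypes left out; Col11a2 and Col13a1 rest on 23 against 13 and 8 against 9 UMIs there. Directions turned in labelled Pdgfra cells for Col2a1 (2.64 with 1000 genes, 0.26 with the same mix) and Col8a2 (-0.044 at 3200 CPM), and in labelled Lmx1b cells for Col9a1 (0.71 at 800 CPM) and, with the same mix, Col8a1 (-0.32), Col11a2 (1.22), Col13a1 (0.34) and Col14a1 (-0.36). They also turned for Col4a1 (-0.30) and Col4a2 (-0.13) in Mmp13 and Saa3 cells with clusters, Col14a1 (-0.73) in Angpt2 and Fmo2 cells with the stricter margin and Col10a1 (-0.12) in intermediate cells of at least 10000 UMIs. The cause was not tested.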
